A study of Mus musculus with 2 samples.

Results

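NRF2 antioxidant response genes are described here in cultured mouse cardiac myofibroblasts treated with a control siRNA or with an siRNA against *Vgll3*. The 10 genes were taken by their symbols: *Nfe2l2*, *Keap1*, *Gclc*, *Gclm*, *Gsr*, *Txnrd1*, *Srxn1*, *Prdx1*, *Hmox1* and *Nqo1*. All 10 were among the 24532 genes of the count table and among the 11754 genes that passed the filter on low values. The cells came from hearts of C57BL/6 mice (by the study's methods C57BL/6J for isolated myofibroblasts) 3 days after myocardial infarction, and the study defined myofibroblasts as the attached cells that were negative for the leukocyte antigen CD45. Both cultures received 12.5 nM siRNA by lipid transfection, either the control (siCtrl) or the one against *Vgll3* (si*Vgll3*), and were kept for 72 h before RNA was taken. The study's methods give male mice of 8 to 10 weeks for infarction, and the number of animals behind a culture is not given in the sources used here. There was 1 library per condition, so no difference below has a replicate check, no test was made, and an effect of the siRNA and a difference between the cultures cannot be told apart.

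NRF2, encoded by *Nfe2l2*, is a transcription factor that switches on genes for glutathione synthesis, thioredoxin recycling, quinone reduction and haem breakdown when cells meet oxidants or electrophiles. In resting cells KEAP1 holds NRF2 and hands it to a ubiquitin ligase for degradation, so the activity of NRF2 is set mainly at the protein level, which mRNA sequencing does not measure. Once stabilised, NRF2 pairs with small MAF proteins and binds the antioxidant response element (ARE) near its targets, a site that the repressor BACH1 also occupies. In infarcted hearts this programme is known for limiting oxidative injury.

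Levels are given as TPM, which takes gene length and sequencing depth into account and lets genes be compared. M is the log2 ratio of si*Vgll3* TPM to siCtrl TPM, and A is log2 of the mean TPM of both libraries. Genes with A > 0 were compared, and a difference was called past the threshold where M was above 0.5 or below −0.5. The interval in square brackets after M is a 95% Clopper-Pearson interval from the read counts and reflects only the error of counting. It may be too narrow even for that, because reads copied by PCR are not separate molecules. The libraries held 140815237 counted reads in siCtrl and 125789276 in si*Vgll3*. *Vgll3* itself measured 202 TPM under siCtrl against 84.0 TPM under si*Vgll3*, or 41.6% of the siCtrl level. All 6 myofibroblast markers and all 5 fibroblast markers listed had reads in both libraries. They summed to 13877 TPM and 1221 TPM in siCtrl, and to 11225 TPM and 1157 TPM in si*Vgll3*.

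The DNA ahead of the start sites is shown for the genes that the results turn on. It was read from the RefSeq promoter table (GRCm38.p6, the assembly of mm10), which matched 7 of the 10 genes with 9 windows, and the 250 bases upstream of the annotated start were searched on both strands. The letters searched were TGACNNNGC for the core of the ARE, TGACTCA for the AP-1 element and GGAATG for the element of TEAD factors, DNA-binding partners described for the VGLL family. *Nqo1* is shown because it stood apart from the other genes, *Prdx1* and *Srxn1* because they differed by nearly the same amount, and *Nfe2l2* because it encodes NRF2 itself. The windows are chr8:107403206-107403455 for *Nqo1* (minus strand), chr4:116685349-116685598 for *Prdx1*, chr2:152105274-152105523 for *Srxn1* (both on the plus strand) and chr2:75704664-75704913 for *Nfe2l2* (minus strand), and capitals mark every match.
*Nqo1*: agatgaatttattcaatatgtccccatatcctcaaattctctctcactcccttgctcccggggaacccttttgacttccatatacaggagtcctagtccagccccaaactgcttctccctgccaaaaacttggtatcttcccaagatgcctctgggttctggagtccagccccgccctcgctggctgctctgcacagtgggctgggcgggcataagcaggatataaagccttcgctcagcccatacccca
*Prdx1*: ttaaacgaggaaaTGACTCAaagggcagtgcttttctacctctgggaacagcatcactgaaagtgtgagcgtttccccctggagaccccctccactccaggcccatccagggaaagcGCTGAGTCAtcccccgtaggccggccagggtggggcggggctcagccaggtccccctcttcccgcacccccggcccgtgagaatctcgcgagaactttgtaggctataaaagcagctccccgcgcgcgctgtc
*Srxn1*: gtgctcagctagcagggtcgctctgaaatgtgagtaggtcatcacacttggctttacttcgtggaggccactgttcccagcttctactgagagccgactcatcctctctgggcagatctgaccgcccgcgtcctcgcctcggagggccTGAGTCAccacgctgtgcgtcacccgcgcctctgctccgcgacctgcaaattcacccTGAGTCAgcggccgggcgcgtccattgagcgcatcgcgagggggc
*Nfe2l2*: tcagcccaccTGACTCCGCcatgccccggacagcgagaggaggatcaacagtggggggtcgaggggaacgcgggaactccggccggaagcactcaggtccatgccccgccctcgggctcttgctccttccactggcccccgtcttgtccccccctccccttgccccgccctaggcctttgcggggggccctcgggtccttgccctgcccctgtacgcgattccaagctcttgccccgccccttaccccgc

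The *Prdx1* window held the ARE letters once on the minus strand, 133 to 125 bases before the start, and this match contains 1 of its 2 AP-1 matches. In *Srxn1* there were 2 AP-1 matches, 102 to 96 and 45 to 39 bases before the start. The match nearer to the start is followed by GC and so reads TGAGTCAGC. The ARE letters searched have C after TGA, so this spelling, with G there, was not counted in any window. The window of *Gclm* is set at a start 70 bases inside the outer RefSeq bounds of the gene that are given below, and held 1 ARE match 134 to 126 bases before that inner start. *Nfe2l2* held an ARE match 240 to 232 bases upstream, and 1 of the 3 windows of *Txnrd1*, at a start inside the gene, held one 92 to 84 bases upstream of it. The windows of *Nqo1* and *Keap1* held none of the 3 motifs. In all, 4 of the 9 windows held the ARE letters and 2 held the AP-1 letters, while 10.2% and 4.46% of all 32851 windows in the table did. The TEAD letters were in 0 of the 9 windows and in 12.6% of all windows. A match is a string of letters and was not tested as a binding site, and a window without one says nothing of sites farther away.

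*Nqo1* was the 1 gene of the 10 that passed the threshold, at about 3 times the siCtrl level in si*Vgll3*. The others lay between an M of −0.13 and 0.41, and 9 of the 10 had M above 0, the exception being *Keap1*. Over all genes compared, 5.73% had M above 0.5, 11.4% had M below −0.5 and 43.0% had M above 0. The median M was 0.29 over the 10 genes and −0.05 over all genes. No gene of the 10 had M below −0.5. The 10 genes summed to 2009 TPM with siCtrl and to 2510 TPM with si*Vgll3*. *Prdx1* made up most of that sum, and without it the sums were 726 TPM and 896 TPM. Without *Nqo1*, the median M of the other 9 genes was 0.25.

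**Figure D1:**
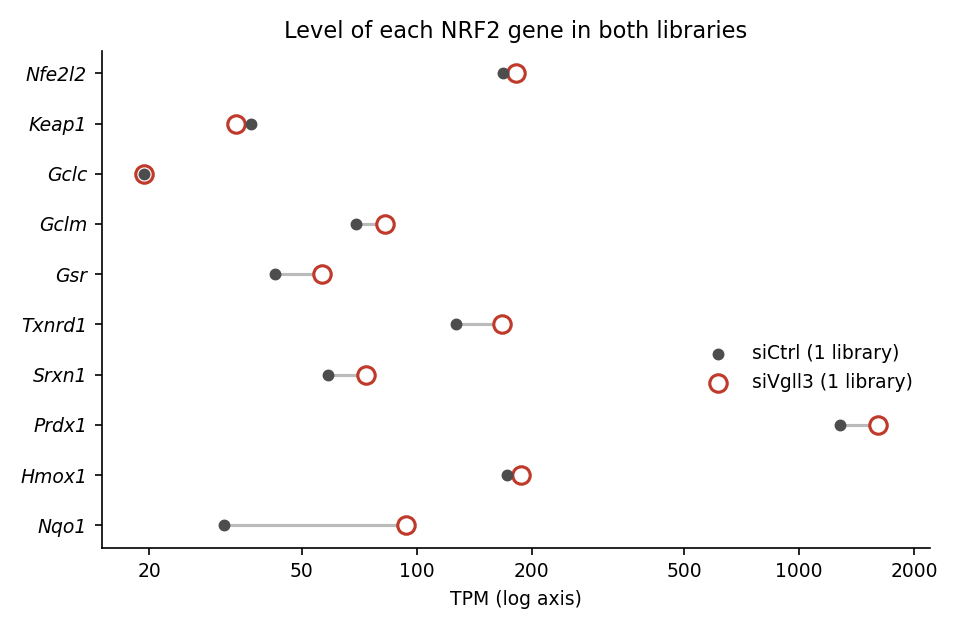
TPM (log axis) of each of the 10 NRF2 genes in the siCtrl library (filled points) and the siVgll3 library (open circles), 1 library each, joined by a line. The widest gap is that of Nqo1, from 31.4 to 93.9 TPM, and Keap1 is the gene whose siVgll3 circle lies to the left.

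The regulators differed little between the libraries. *Nfe2l2* (NCBI gene 18024, chromosome 2 from 75675513 to 75704663), which encodes NRF2, had 168 TPM after siCtrl and 182 TPM after si*Vgll3*, with 26760 and 26857 reads. Its M was 0.12 [0.09, 0.14], a higher value in si*Vgll3* that exceeded counting error but not the threshold. *Keap1* (NCBI gene 50868, chromosome 9 from 21229730 to 21239332), the adaptor for NRF2 degradation, was at 36.9 TPM with siCtrl and at 33.6 TPM with si*Vgll3*, an M of −0.13 [−0.18, −0.09]. The 2 transcripts thus went in opposite directions by small amounts. *Nfe2l2* mRNA was 4.55 times as abundant as *Keap1* mRNA in siCtrl and 5.41 times as abundant in si*Vgll3*, and their M differed by 0.25 [0.20, 0.30].

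Enzymes of glutathione metabolism were level or modestly higher. *Gclc* (NCBI gene 14629, chromosome 9 from 77754535 to 77794489) and *Gclm* (NCBI gene 14630, chromosome 3 from 122245487 to 122267215) encode the catalytic and the modifier subunit of glutamate-cysteine ligase, the rate-limiting enzyme of glutathione synthesis. *Gclc* measured 19.3 TPM under siCtrl against 19.4 TPM under si*Vgll3*, an M of 0.00 [−0.06, 0.07]. *Gclm* had 69.4 TPM after siCtrl and 82.6 TPM after si*Vgll3*, an M of 0.25 [0.21, 0.29]. The subunits therefore did not move alike in these libraries: the M of *Gclc* minus that of *Gclm* was −0.25 [−0.32, −0.17], and the TPM ratio of *Gclc* to *Gclm* went from 0.278 with siCtrl to 0.235 with si*Vgll3*. *Gsr* (NCBI gene 14782, chromosome 8 from 33653238 to 33698162), glutathione reductase, which returns oxidised glutathione to its reduced form, was at 42.7 TPM with siCtrl and at 56.7 TPM with si*Vgll3*. Its M of 0.41 [0.36, 0.45] was the second highest of the 10 genes, with 889 of all genes compared above it.

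The 3 thioredoxin and peroxiredoxin genes among the 10 were all higher in si*Vgll3*, with M from 0.33 to 0.40. *Txnrd1* (NCBI gene 50493, chromosome 10 from 82833951 to 82897724), cytosolic thioredoxin reductase, measured 127 TPM under siCtrl against 167 TPM under si*Vgll3*, an M of 0.40 [0.37, 0.42]. *Prdx1* (NCBI gene 18477, chromosome 4 from 116685599 to 116700000), a peroxiredoxin that breaks down hydrogen peroxide, had 1283 TPM after siCtrl and 1613 TPM after si*Vgll3*, an M of 0.33 [0.32, 0.34]. It was the most abundant of the 10 genes, with a mean TPM above that of 99.0% of all genes compared. *Srxn1* (NCBI gene 76650, chromosome 2 from 152105524 to 152111376), the sulfiredoxin that repairs over-oxidised peroxiredoxins, was at 58.7 TPM with siCtrl and at 73.8 TPM with si*Vgll3*, an M of 0.33 [0.29, 0.37]. The M of *Srxn1* and *Prdx1* differed by −0.00 with an interval from −0.04 to 0.04, so that any difference in counting terms lay within those bounds. *Txnrd1* and *Gsr*, the reductases of the parallel thiol systems, likewise differed in M by −0.01 [−0.06, 0.04]. *Txnrd1* differed from *Txnrd2*, its mitochondrial counterpart, by 0.43 [0.31, 0.55], since *Txnrd2* measured 10.1 TPM under siCtrl against 9.85 TPM under si*Vgll3*.

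*Hmox1* and *Nqo1*, both widely used as readouts of NRF2, differed sharply from each other. *Hmox1* (NCBI gene 15368, chromosome 8 from 75093618 to 75100593), the inducible haem oxygenase that breaks haem down to biliverdin, iron and carbon monoxide, had 172 TPM after siCtrl and 187 TPM after si*Vgll3*, with 17316 and 17410 reads. This is an M of 0.12 [0.09, 0.15]. *Nqo1* (NCBI gene 18104, chromosome 8 from 107388225 to 107403205), the quinone reductase that makes hydroquinones without passing through radical forms, was at 31.4 TPM with siCtrl and at 93.9 TPM with si*Vgll3*, with 3110 and 8610 reads. Its level was 2.99 times that of siCtrl (counting interval 2.87 to 3.12), an M of 1.58 [1.52, 1.64]. Only 72 of the 11754 genes compared had a higher M. The M of *Hmox1* minus that of *Nqo1* was −1.46 [−1.53, −1.39], a gap passed among the 10 pairs compared by that of *Nqo1* and *Nqo2* alone. *Hmox1* mRNA was 5.48 times as abundant as *Nqo1* mRNA in siCtrl and 1.99 times as abundant in si*Vgll3*. The paralogues did not share these values. *Nqo2* was at 27.0 TPM in both libraries, an M of −0.00 and 1.58 below that of *Nqo1*, and *Hmox2*, the constitutive haem oxygenase, measured 77.2 TPM under siCtrl against 67.3 TPM under si*Vgll3*, an M of −0.20.

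**Figure D2:**
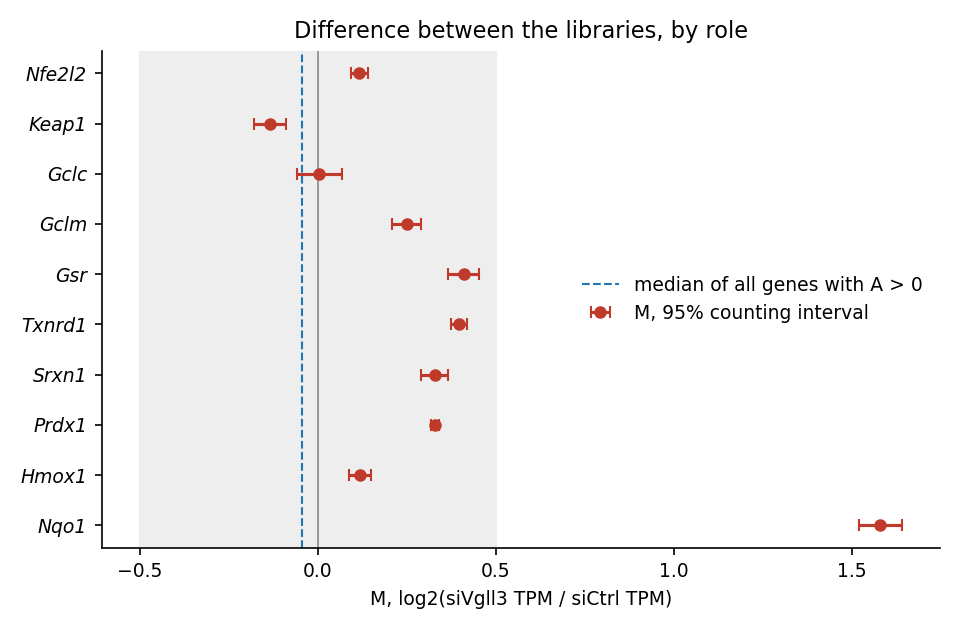
M, the log2 ratio of siVgll3 to siCtrl TPM, of each NRF2 gene with its 95% counting interval (bars), ordered by role. The shaded band spans the threshold of −0.5 to 0.5 and the dashed line is the median of all genes, −0.05. Nqo1 at 1.58 is the 1 gene outside the band, and the thioredoxin and peroxiredoxin genes lie between 0.33 and 0.40.

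In siCtrl, the order of TPM from highest to lowest was *Prdx1*, *Hmox1*, *Nfe2l2*, *Txnrd1*, *Gclm*, *Srxn1*, *Gsr*, *Keap1*, *Nqo1* and *Gclc*. In si*Vgll3* *Nqo1* stood in position 5 in place of position 9, and the order of the other genes was the same. The spread between cultures is unknown, so neighbours in this order, such as *Hmox1* at 172 TPM and *Nfe2l2* at 168 TPM, cannot be called different. Every gene of the 10 was well expressed, and the lowest, *Gclc*, had a mean TPM above that of 49.1% of all genes compared.

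**Figure D3:**
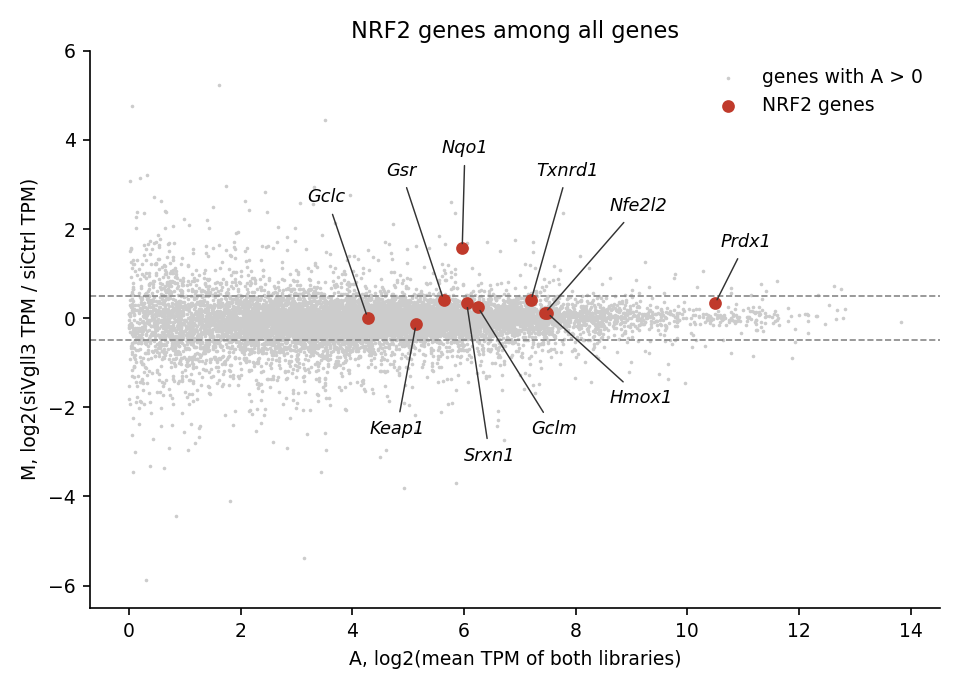
M against A, log2 of the mean TPM of both libraries, for all 11754 genes with A > 0 (grey) and the 10 NRF2 genes (red). Dashed lines mark M of −0.5 and 0.5, and Nqo1 is the 1 NRF2 gene that lies beyond them.

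Most listed markers of other cell types were low or without reads, though in siCtrl *Tnnt2* exceeded *Srxn1* and *Tek* was level with *Gclc*. Of 8 leukocyte and macrophage markers, 4 had 0 reads in both libraries (*Ptprc*, *Adgre1*, *Itgam* and *Cd163*), and the list summed to 13.5 TPM with siCtrl and to 6.15 TPM with si*Vgll3*. *Lyz2* made up most of that sum, at 10.9 TPM and 3.13 TPM, whereas *Csf1r* was higher in si*Vgll3* with an M of 0.50. The 5 endothelial markers summed to 24.0 TPM and 19.6 TPM, of which *Tek* alone held 19.5 TPM and 13.4 TPM. *Pecam1*, *Cdh5* and *Kdr* lay on the other side, with an M of 0.47, 0.50 and 0.97. *Vwf* was lower in si*Vgll3*, as *Tek* was, with an M of −0.51. *Kdr* and *Vwf* did not pass the filter of A > 0. The 4 mural markers summed to 15.7 TPM and 9.29 TPM, mostly *Notch3* at 14.1 TPM and 7.97 TPM. Among 5 cardiomyocyte markers, *Myh6*, *Actn2* and *Myl2* had 0 reads in both libraries, whereas *Tnnt2* had 60.0 TPM after siCtrl and 10.4 TPM after si*Vgll3*. Of the 6 myofibroblast markers, 2 were higher in si*Vgll3*: *Acta2*, at 3296 TPM with siCtrl and 3866 TPM with si*Vgll3*, and *Tagln* (M 0.52). The other 4 were lower: *Col1a1*, at 4918 TPM and 2631 TPM, *Postn* (M −1.22), *Col3a1* (M −0.86) and *Cthrc1* (M −0.24). Of the 5 fibroblast markers, 3 had M above 0 and 2 below it, from −0.58 for *Tcf21* to 0.72 for *Thy1*. The part of these transcripts in the values of *Nqo1* and the other NRF2 genes was not tested. In such bulk samples fewer cells of a type and less RNA per cell cannot be told apart.

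Beyond the 10 genes, 104 further genes of the pathway were listed by role, of which 92 had A > 0. Of these, 10 (10.9%) had M above 0.5 and 10 (10.9%) had M below −0.5, against 5.73% and 11.4% of all genes. Their median M was −0.00 (order-statistic interval −0.07 to 0.08). The interval is taken over the 92 genes as if they were independent, which genes of a pathway are not. It describes the spread of M over this list and not a spread between cultures. That median changed sign under other scalings, with values up to 0.05, and 45 of the 92 had M above 0. The wider pathway was thus spread to both sides of 0.

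Partners and regulators of NRF2 lay on both sides of 0, from an M of −0.58 to 0.53, with 6 of 14 intervals above 0 and 6 below it. Over all 11754 genes compared, 3807 intervals lay above 0 and 5386 below it, so an interval without 0 was common at this depth. *Maff*, a small MAF protein, measured 38.9 TPM under siCtrl against 56.4 TPM under si*Vgll3*, an M of 0.53 [0.48, 0.59], and was the 1 gene of 14 above the threshold. *Mafk*, another small MAF protein, named after its value was seen, had an M of 0.41. *Nfe2l1*, the NRF2 paralogue that drives proteasome and metal-response genes, was the 1 gene below −0.5, at 149 TPM with siCtrl and 100 TPM with si*Vgll3*, an M of −0.58 [−0.60, −0.56]. It differed from *Nfe2l2* in M by 0.70 [0.66, 0.73]. *Bach1*, the repressor of the same element, had 22.8 TPM after siCtrl and 17.9 TPM after si*Vgll3*, an M of −0.34, and differed from *Nfe2l2* by 0.46 [0.41, 0.52]. *Sqstm1*, the autophagy receptor that can sequester KEAP1 and the most abundant gene of this group, was at 458 TPM with siCtrl and at 392 TPM with si*Vgll3*, an M of −0.23.

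Glutathione genes held the widest range of the pathway. Of 23 genes compared, 3 were above the threshold and 4 below it. *Gsto1*, an omega-class glutathione transferase, measured 357 TPM under siCtrl against 857 TPM under si*Vgll3*, an M of 1.26 [1.24, 1.28]. *Mgst2*, a microsomal glutathione transferase, had the highest M, 2.49 [1.94, 3.07], but from only 33 reads in siCtrl and 170 in si*Vgll3*. *Ggct*, which degrades γ-glutamyl peptides to 5-oxoproline, was at 20.2 TPM and 35.5 TPM, an M of 0.81 [0.72, 0.90]. *Gstt1*, a theta-class transferase, had 23.5 TPM after siCtrl and 5.75 TPM after si*Vgll3*, an M of −2.03 [−2.20, −1.86]. *Ggt5*, a γ-glutamyl transferase of the cell surface, was at 1.82 TPM and 0.451 TPM, an M of −2.01 [−2.32, −1.71]. *Oplah*, which opens 5-oxoproline to glutamate, had an M of −0.72, from 1630 reads in siCtrl and 918 in si*Vgll3*. It overlaps *Exosc4* of the opposite strand, which had 2459 and 2010 reads, and whether the counting used strand is not given. *Gpx3*, the secreted glutathione peroxidase, had an M of −0.53 at 301 TPM with siCtrl and 208 TPM with si*Vgll3*. *Gpx4*, which reduces lipid hydroperoxides and was the most abundant gene of the group, was at 712 TPM and 782 TPM, an M of 0.14. The cystine transporter *Slc7a11*, named after its value was seen, was at 6.37 TPM with siCtrl and at 7.35 TPM with si*Vgll3*, an M of 0.21 [0.14, 0.27]. Of the 23 genes of the group, 9 had M above 0, as *Slc7a11* did, and 14 had M below 0.

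Among the other thioredoxin and peroxiredoxin genes, *Prdx6* stood out. *Prdx6* encodes a peroxiredoxin that uses glutathione and also acts on phospholipids, and measured 70.5 TPM under siCtrl against 229 TPM under si*Vgll3*, with 10706 and 32217 reads. Its level was 3.26 times that of siCtrl, an M of 1.70 [1.67, 1.73], with 50 genes of all those compared above it. The related gene *Prdx6b* had 0 reads in both libraries. *Prdx5*, the most abundant of the group, was at 883 TPM and 911 TPM, an M of 0.04. *Sesn1*, a sestrin induced by p53, was the 1 gene of 15 below the threshold, with an M of −0.64 [−0.74, −0.54]. Other genes of the group lay within the threshold.

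Of the genes for iron and haem handling, the ferritin subunits were higher in si*Vgll3*. *Ftl1*, the light chain, had 4759 TPM after siCtrl and 7891 TPM after si*Vgll3*, an M of 0.73 [0.72, 0.74]. *Fth1*, the heavy chain, was at 2247 TPM and 4010 TPM, an M of 0.84 [0.83, 0.84]. Together they made up 0.702% of all TPM in siCtrl and 1.19% in si*Vgll3*, more than all 10 core genes together in either library. *Fech*, ferrochelatase, which inserts iron in the last step of haem synthesis, had an M of 0.85 [0.80, 0.89]. *Slc40a1*, which encodes the iron exporter ferroportin, had an M of −0.71 [−0.85, −0.57] at 5.25 TPM in siCtrl, and *Abcb6*, a porphyrin transporter, had an M of −0.66 [−0.76, −0.57].

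The remaining groups had few genes past the threshold. For NADPH supply, *Taldo1*, a transaldolase of the pentose phosphate pathway, was just above it with an M of 0.51 [0.48, 0.54], and *Pgd*, the most abundant of the 6 genes, was at 257 TPM and 333 TPM, an M of 0.38. For quinones, aldehydes and drugs, *Akr1b10*, an aldo-keto reductase, had an M of 0.54 [0.46, 0.62] and *Osgin1*, a growth inhibitor induced by oxidative stress, had an M of −0.56 [−0.69, −0.44]. The other 15 genes of that group lay within the threshold, among them *Ephx1*, microsomal epoxide hydrolase, at 423 TPM and 410 TPM. For superoxide and hydrogen peroxide, *Ucp2*, a mitochondrial carrier, was at 11.1 TPM with siCtrl and at 4.93 TPM with si*Vgll3*, an M of −1.17 [−1.33, −1.01], while *Sod1*, the cytosolic superoxide dismutase, was at 715 TPM and 757 TPM, an M of 0.08.

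**Figure D4:**
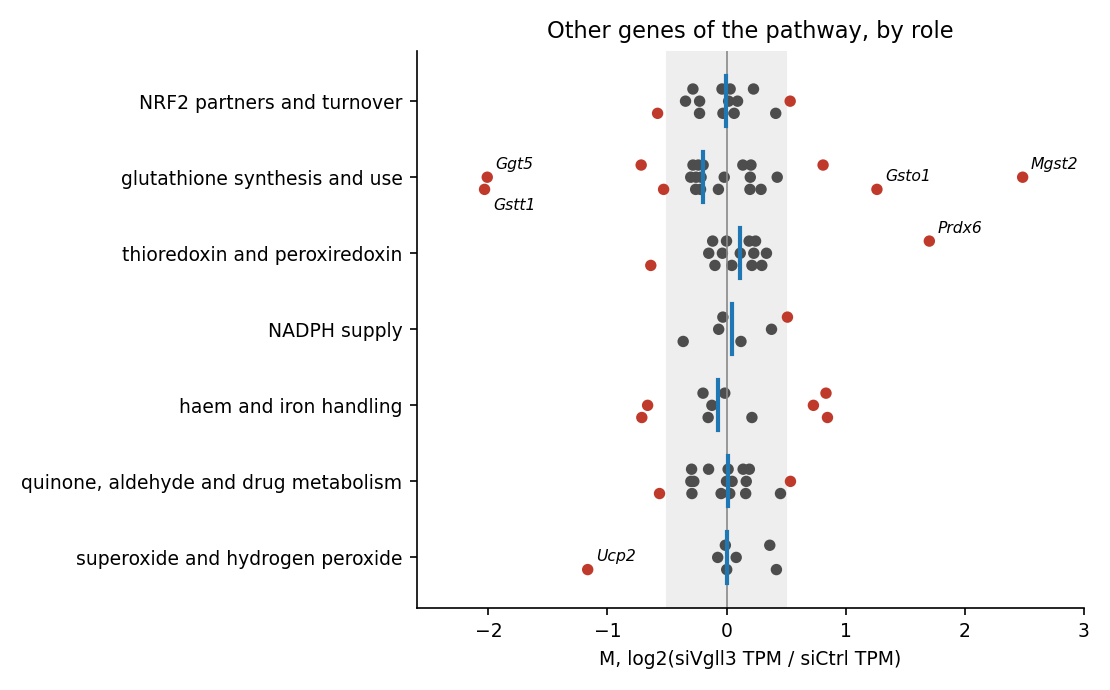
M of the 92 further pathway genes with A > 0, by role, 1 point a gene. Red points lie beyond the shaded threshold of −0.5 to 0.5, blue bars are group medians and genes with M beyond 1 on either side are labelled. Points fall on both sides of 0 in all 7 groups, and Mgst2, Prdx6 and Gsto1 lie farthest to the right.

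Some reads cannot be assigned with certainty. In GENCODE vM21, 5 of the 10 genes overlap no other annotated gene (*Gclc*, *Srxn1*, *Prdx1*, *Hmox1* and *Nqo1*) and 5 overlap at least 1. *Txnrd1* contains the protein-coding gene *Eid3*, which had 55 reads over both libraries against 27640 and 33704 for *Txnrd1*. *Keap1* and *Gclm* overlap non-coding genes of the opposite strand, and *Gclm* also overlaps a transcribed processed pseudogene of its own strand. *Nfe2l2* and *Gsr* overlap small non-coding RNA genes of the same strand. Whether the counting used strand is not given in the sources used here. How reads that match pseudogenes, of which the ferritin genes have several, were counted is not given either.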

How the data were processed

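Poly(A) RNA of 2 cultures was sequenced on an Illumina NovaSeq after stranded library preparation. Per the labels and methods, the authors used FastQC for read quality, Trimmomatic for trimming, HISAT2 for mapping to the mm10 assembly and StringTie for transcripts (versions and annotation release not given in the sources used here). The authors deposited raw read counts per gene, with no normalization, and TPM per gene in a table for each library. M and A were computed from TPM with nothing added, on genes with TPM above 0 in both libraries. Intervals of M come from the counts by the Clopper-Pearson method, shifted onto the TPM ratio, and intervals of a difference of M from the normal approximation of the 4 counts. With 1 library per condition no model was fitted, and edgeR 4.0.16 and DESeq2 1.42.0 gave scaling factors only. Gene positions are RefSeq's (GRCm38.p6).

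The 10 genes and all lists were chosen with earlier results of these data known. Genes named were the 10, *Vgll3*, the genes of the 10 pairs, each wider-list gene with A > 0 and M beyond the threshold, and the most abundant gene of each role. The alternatives were M from the counts scaled as CPM, by TMM or by the size factors of DESeq2, centred M, 0.1 or 1 TPM added, no filter on A or A > 2, a threshold of 1, and the whole counting interval beyond the threshold. Python 3.11.15, scipy 1.17.1 and R 4.3.3 were used.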

Additional observations from a re-analysis of the deposited data

Results flagged for a closer look

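A pair of glutathione genes outside the TPM tables had reads in si*Vgll3* but at most 3 in siCtrl. They are among 7 wider-list genes without TPM, of which 3 had 0 reads in both libraries. *Nfe2*, also without TPM, went the other way, from 15 reads in siCtrl to 0 in si*Vgll3*. The share of all genes without TPM that changed in this way was not counted, so the pair has no background to be set against. *Gsta1*, an alpha-class glutathione transferase, had 0 reads in siCtrl and 256 reads in si*Vgll3*. Per counted read, the si*Vgll3* value was 95.5-fold the 3 reads that a count of 0 allows in siCtrl. That ratio takes the 256 reads as exact and is not a lower bound. *Ggt1*, a γ-glutamyl transferase, had 2 reads in siCtrl and 30 reads in si*Vgll3*, a log2 ratio per counted read of 4.07 with a counting interval from 2.09 to 7.18. *Gsta2*, a close relative of *Gsta1*, had 17 reads and 82 reads, a log2 ratio of 2.43 (1.67 to 3.28), and the split of reads between these near-identical genes is uncertain. All of these values are from 1 library per condition.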

How the results depend on the processing

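No paired analysis was possible because both arms hold a single library, and leaving out a library was not possible for the same reason. *Nqo1* was the 1 core gene past the threshold under all 10 alternatives, with M from 1.55 to 1.63, and no core gene changed sign under the 8 alternatives that give an M. *Gclc* ranged from 0.00 to 0.06. The median M of all genes was −0.05 with TPM and between −0.01 and 0.01 with the 3 count scalings. TMM scaling and DESeq2's size factors bring the typical ratio near 0 by construction, whereas CPM only divides by the total count. The median M of the wider list reversed from −0.00 to 0.0517 with CPM, 0.0438 with TMM scaling, 0.0409 with DESeq2's size factors, 0.0447 when centred, 0.0014 with 1 TPM added and 0.0014 without a filter on A. The M of *Vgll3* was −1.21 with CPM, −1.22 with TMM scaling, −1.23 with DESeq2's size factors and −1.22 when centred. A threshold of 1 left 3 wider-list genes above and 3 below, and 207 and 384 of all genes. Without a filter on A, 1428 genes were above 0.5 and 2103 below −0.5. With A > 2, 393 genes were above 0.5, and 442 were when the whole interval had to lie above it. These alternatives change the genes compared or the bar they must pass. With CPM, the M of all core genes but *Keap1*, *Gclc* and *Nqo1* lay beyond the counting intervals given above. *Prdx1* had an M of 0.38 with CPM against 0.33 [0.32, 0.34] with TPM, and *Txnrd1* 0.45 against 0.40 [0.37, 0.42]. At this depth counting error is small for the core genes, and the limits are the choice of scale and the single library per condition.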

Other observations

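The wider list also held genes near or below the limit of detection, which did not pass the filter of A > 0. *Nfe2*, the blood-lineage relative of NRF2, had 15 reads with siCtrl against 0 with si*Vgll3*. *Gpx2*, *Abcc2* and *Cybb* had 0 reads in both libraries, which allows up to 3 reads in each. *Aldh3a1*, an aldehyde dehydrogenase, had 39 and 10 reads, and *Nox1* had 8 and 11 reads. All genes of this paragraph were named after their values were seen.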
